A study of Mus musculus with 8 samples.

Results

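Sox10, Foxd3, Ret, Th, Tubb3 and Stmn2 are 6 genes known from neural crest, glial cells and neurons, and they were picked as listed symbols out of 22869 distinct symbols in a count table of mouse embryonic heart tissue. All 6 were found in the table, 5 had enough counts to be tested, and Foxd3 had none in any library. Total RNA was sequenced from atrioventricular (AV) cushions, the swellings of the AV canal that give rise to valves and septa, and from ventricles at E12.5, a midgestation stage. The 8 libraries formed 4 groups of 2, a wild type and a mutant group for each of the 2 tissues, all of strain C57BL/6. The mutants are labelled NfatC1+/-; KLF2fl/fl, that is with both copies of Klf2, the gene of a flow-responsive endothelial transcription factor, floxed. The labels leave unsaid whether NfatC1+/- means the loss of 1 copy of this endocardial gene or a copy that carries a recombinase, so both genes may differ between the genotypes. The controls are labelled wild type, whereas the design text names KLF2 fl/fl mice in their place. If recombination is driven from Nfatc1, it would act in endocardium and its descendants. Which cells of the cushion or ventricle hold the RNA of the 6 genes was not tested.

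Neural crest cells leave the dorsal neural tube and migrate, among other places, to the outflow end of the heart, where some become the neurons and glia of the cardiac ganglia. Sox10 and Foxd3 encode transcription factors of migrating crest and of glial precursors, Ret encodes the receptor tyrosine kinase for ligands of the GDNF family, and Th encodes tyrosine hydroxylase, the rate-limiting enzyme of catecholamine synthesis. Tubb3 encodes a beta tubulin used as a marker of neurons, and Stmn2 encodes a stathmin, a microtubule regulator of growing axons.

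The 5 tested members had higher levels in cushions than in ventricles, and the sequences just before the start sites of 2 of them, Tubb3 and Th, are printed to show that they have different motifs there. RefSeq promoter sequences on mouse build GRCm38.p6 were found for 3 of the 6 members, Foxd3, Th and Tubb3. That build is not the one named for the counts, and no read was placed on it. The Tubb3 sequence lies at chr8:123411303-123411552 on the plus strand, and the Th sequence at chr7:142899996-142900245 on the minus strand, each 250 bases long and ending at the base before the start site.
Tubb3: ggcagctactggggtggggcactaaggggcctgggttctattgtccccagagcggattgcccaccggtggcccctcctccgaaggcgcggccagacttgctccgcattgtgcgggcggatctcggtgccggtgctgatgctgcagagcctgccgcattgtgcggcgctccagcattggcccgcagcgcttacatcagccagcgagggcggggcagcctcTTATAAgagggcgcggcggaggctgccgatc
Th: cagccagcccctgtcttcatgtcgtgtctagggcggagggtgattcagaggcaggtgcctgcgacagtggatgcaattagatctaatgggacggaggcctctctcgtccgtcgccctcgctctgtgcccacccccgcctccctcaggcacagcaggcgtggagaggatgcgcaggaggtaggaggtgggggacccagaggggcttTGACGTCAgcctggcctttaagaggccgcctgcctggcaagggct
Capitals in the Tubb3 sequence mark TATAA, found once on each strand in overlapping letters that begin 31 and 30 bases before the start. Capitals in the Th sequence mark TGACGTCA, the letters of the cAMP response element, which begin 45 bases before the start. Foxd3 had TGACGTCA too, 233 bases before its start. Among 32851 promoters of the same length, searched on both strands, 1.5% held TGACGTCA and 22.8% held TATAA. A match describes the letters only.

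Library totals lay between 18955733 and 26579215 counts with 1 row kept per symbol, and 1 CPM (counts divided by the scaled library total, the unit of all levels here) corresponded to at least 18.7 reads. Klf2 was at 17.28 and 12.86 CPM in wild type cushions and at 1.96 and 0.651 CPM in mutant cushions, and at 11.71 and 9.19 CPM in wild type ventricles and 0.736 and 0.625 CPM in mutant ventricles, so every mutant library was below every wild type one. Mutant cushion replicate 2 stood apart, at -22.8 on the first principal component against -54.9 to -46.3 for the other cushion libraries. Whether the 2 libraries in a group stem from separate embryos is unstated, so p-values measure only the spread between the samples at hand, and this spread may be technical. Unless another tool is named, p-values are from edgeR's quasi-likelihood test with Benjamini-Hochberg adjustment over 14940 genes, and a gene passed below 0.05. The fit was also made with the replicate number as a block, and that value is given where it changes the call of a member or of a named gene.

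Some genes that define crest and cardiac ganglion cells were scarce in these libraries, and others were not. Chat and Slc18a3, which encode the synthetic enzyme and the vesicular transporter of acetylcholine, had 0 counts in all 8 libraries. Tfap2a of the neural crest had at most 2 counts in a library and the neuronal splicing factor gene Rbfox3 at most 5. Dbh, the enzyme gene that follows Th in noradrenaline synthesis, reached at most 11 counts. Counts per library were higher for other genes of the same lists, at 73 to 168 for the neuronal RNA-binding protein gene Elavl4, 45 to 152 for the choline transporter gene Slc5a7, 22 to 220 for the neurotrophin receptor gene Ngfr and 228 to 1510 for the neuregulin receptor gene Erbb3. These genes were picked after their values were seen, and the 6 members are described by name and not as the readout of a cell type. In tissue RNA of this kind, fewer cells of a type and less RNA per cell cannot be told apart.

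**Figure D1:**
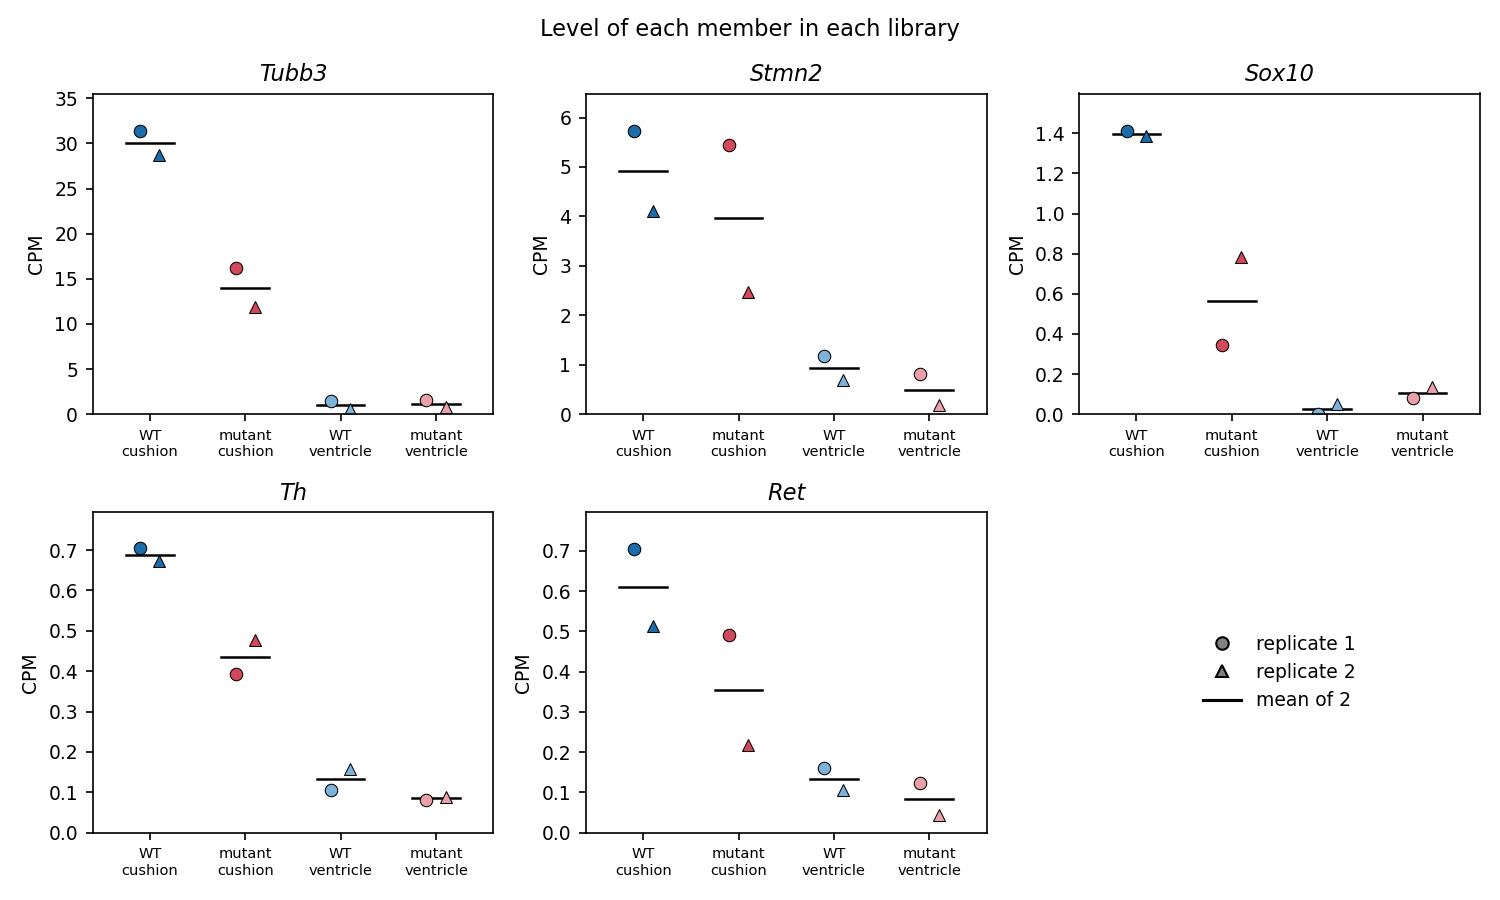
Level of Tubb3, Stmn2, Sox10, Th and Ret in CPM (linear axis from 0, with its own scale in each panel) in each library, with circles for replicate 1, triangles for replicate 2 and a line at the mean of the 2. Both cushion groups lie above both ventricle groups in every panel, and the mutant cushions lie below the wild type ones except for Stmn2, and Foxd3 is not drawn because it had 0 counts in each library.

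Within the cushion, 4 of the tested members (Sox10, Ret, Th and Tubb3) had lower levels in both mutant libraries than in both wild type ones, and Tubb3 alone fell, in the fit with the block. Between tissues every tested member had the higher level in cushion, by 4.41-fold (Ret) to 28.1-fold (Tubb3) in the wild type fit, leaving aside Sox10 with 1 count in wild type ventricle. Over all genes, the comparison of genotypes in cushion called 0 of the 5 tested members, and 0% of 14940 genes. Before adjustment 1699 genes had p under 0.05, DESeq2 called 25 and limma-voom 0. With the block 1 member, Tubb3, was called lower, where 0.569% of all genes were. Both mutant cushion libraries lay below both wild type ones for Sox10, Ret, Th and Tubb3 and not for Stmn2, and 23.9% of all genes did so. In ventricle no member was called in either fit, with 0% of all genes called without the block and 0.00669%, which is 1 gene, with it. There 342 genes had an unadjusted p under 0.05, DESeq2 called 1 and limma-voom 0. For the difference of the genotype effects 0 members and 0% of all genes were called, 1776 genes had an unadjusted p under 0.05, and DESeq2 and limma-voom called 0.

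For the wild type tissues 4 of the 5 tested members passed, where 23.1% of all genes passed in either direction, and with the block 5 did, where 41.4% of all genes did. For the mutant tissues the counts were 2 members against 9.42% of genes, and 4 with the block against 23.9%. Each of these members was higher in cushion, as were 1861 of the 3452 genes that passed between wild type tissues and 920 of the 1407 between mutant tissues. Sox10, Ret and Th each had 10 or more counts in both wild type cushion libraries, in 1 mutant cushion library and in no ventricle library. They could therefore pass the filter on low counts only through cushion. The counts of members, and their adjusted p between tissues, give no support of their own. Sox8, Gfra2, Tubb4a, Prph, Ntrk3, Dct, S100b and Egr2, named or counted below, had 10 or more counts in at most 1 ventricle library. The filter needs as many libraries as 1 group holds, so the same limit applies to them. Beside the counts of list genes that follow, 1861 of 14940 genes were higher in wild type cushion, or 3171 with the block. Markers of cushion mesenchyme also moved with tissue. Of 10 such genes, all tested, 5 were higher in wild type cushion (9 with the block), and their summed level was 16650 and 8205 CPM there, 12570 and 8010 CPM in mutant cushions, and 1692 to 4676 CPM over the ventricle libraries. Vcan held 8625 and 2688 CPM of this in wild type cushions and 6223 and 2920 CPM in mutant cushions, and differed widely between replicates. In mutant against wild type cushion 9 of the 10 had a value below 0, with a median of -0.33, and the cartilage collagen gene Col2a1 alone fell with the block (adjusted p = 0.0177, or 0.156 with the GC correction added). Of 8 tested epicardial markers 7 had a value above 0 in that comparison, with a median of 0.53. Tbx18 alone rose with the block (adjusted p = 0.0488). It did not pass with the GC correction added (0.0735) or in limma-voom with the block (0.0621). All 7 tested leukocyte markers had a value above 0, with a median of 0.49, and none passed in either fit. Summed levels in wild type and then mutant cushions were 210.3, 255.1, 354.9 and 288.6 CPM for the epicardial list and 78.2, 114.8, 112.6 and 155.9 CPM for the leukocyte list. Of 10 cardiomyocyte markers 8 had the lower value in wild type cushion than in ventricle, and Tnnt2, Myl2 and Myl3 passed. The list summed to 48300 and 31450 CPM in wild type cushions, 35790 and 34850 CPM in mutant cushions and 46560 to 104300 CPM over the ventricle libraries, and Ttn, which held 29510 and 12550 CPM of this in wild type cushions and 70720 and 15180 CPM in wild type ventricles, differed widely between replicates. Of 10 endothelial and endocardial markers, 5 had a value above and 5 below 0 between genotypes in cushion, with a median of 0.03. In mutant cushion replicate 2 the endothelial gene Emcn was at 112.5 CPM and the atrial peptide gene Nppa at 754 CPM, against 38.0 to 47.9 CPM and 142 to 335 CPM in the other cushion libraries. Other genes of the same 2 lists differed in direction. In that library Pecam1 (300.1 CPM) was the highest of the cushion libraries, while Nfatc1 (15.15 CPM) and Myh7 (3725 CPM) were the lowest. The part of these cell types in the values of the members was not tested.

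**Figure D2:**
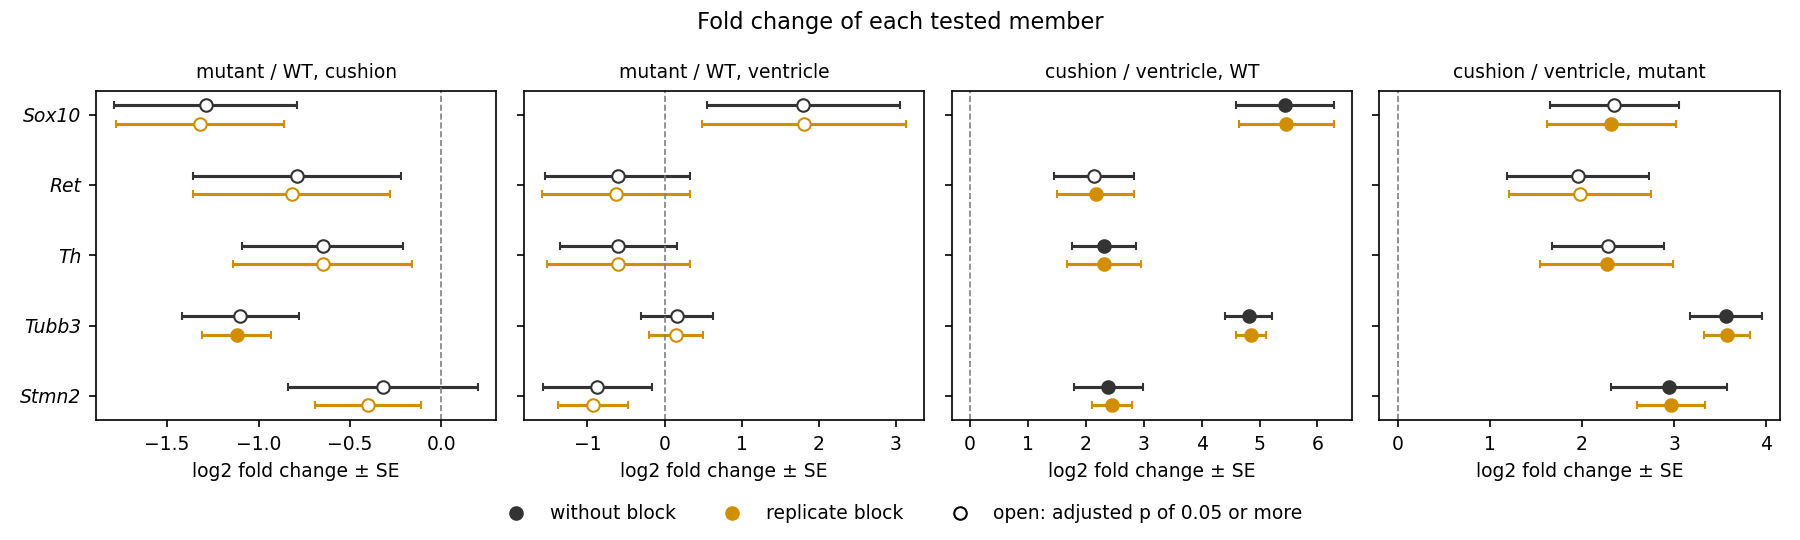
Log2 fold change with its SE (horizontal axis, with its own range in each panel) of the 5 tested members in 4 comparisons, in edgeR without the block (dark) and with it (amber), with open symbols for an adjusted p of 0.05 or more. Tubb3 is the 1 filled symbol for genotype, with the block in cushion, and between tissues every value is above 0.

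Sox10 RNA was found almost only in cushions, and less of it was counted in mutant than in wild type cushions. The CPM values were 1.41 and 1.39 in wild type cushions, 0.343 and 0.782 in mutant cushions, 0 and 0.0528 in wild type ventricles, and 0.0817 and 0.134 in mutant ventricles. These rest on 30 and 35 counts, 7 and 18 counts, 0 and 1 count, and 2 and 3 counts. Both wild type cushion libraries were above both mutant ones, and all 4 cushion libraries were above all ventricle libraries. Wild type cushions had a mean of 1.40 ± 0.0167 CPM (SD, n = 2), and mutant cushions one of 0.562 ± 0.310 CPM (SD, n = 2). The log2 fold change of -1.29 ± 0.50 (SE) did not pass (adjusted p = 0.435, or 0.116 with the block). Without mutant cushion replicate 2 it was -2.01 (adjusted p = 0.885). The ratio of summed counts, mutant to wild type cushion, was 0.413 with an exact interval of 0.249 to 0.664 at 95% confidence, which covers counting error only.

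In ventricles the counts of Sox10 were too few to compare the genotypes. The mutant libraries had 5 counts and the wild type ones 1, a ratio of 4.02 with an exact counting interval of 0.449 to 190, and the difference did not pass (adjusted p = 0.998). The change in cushion minus that in ventricle, a log2 difference of -3.09 ± 1.34 (SE), did not pass either (adjusted p = 0.418, or 0.187 with the block). Between wild type tissues, 65 counts in cushion stood against 1 in ventricle, a ratio of 52.6 with a counting interval of 9.10 to 2107, and Sox10 was higher in cushion (adjusted p = 0.00387). Sox10 passed the filter only through cushion, so this p gives no support of its own. Between mutant tissues the log2 difference of 2.35 ± 0.70 (SE) did not pass (adjusted p = 0.0715), and it passed with the block (0.0256) but not with the block without mutant cushion replicate 2 (0.249).

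Foxd3 was at 0 counts in each of the 8 libraries. A count of 0 allows 3 counts, which is between 0.119 and 0.160 CPM by library and is below the level of Sox10 in each cushion library. Foxd3 shares 3.8% of its exon bases in the GENCODE vM21 annotation with a miRNA gene on the same strand, and none of the tested members shares exon bases with another gene there.

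Sox8 and Sox9 encode the other SoxE factors, which share the type of DNA-binding domain of Sox10. Sox9, which also marks cushion mesenchyme, was at 89.4 and 30.3 CPM in wild type cushions and at 57.6 and 24.9 CPM in mutant cushions, so that the 2 genotypes overlapped. Sox8 was at 2.44 and 1.74 CPM in wild type and at 3.09 and 1.35 CPM in mutant cushions, and these overlapped as well. Their log2 fold changes between genotypes in cushion were -0.54 ± 0.79 (SE) for Sox9 and 0.08 ± 0.43 (SE) for Sox8, and neither passed (adjusted p = 0.798 and 0.951). Compared with wild type ventricle, Sox8 was higher in cushion (log2 difference 2.11 ± 0.52, adjusted p = 0.0217), while Sox9, with 3.18 ± 0.88, passed only with the block (adjusted p = 0.0503, or 4.07e-08 with it).

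Of 16 listed transcription factor genes of neural crest, 11 were tested. In mutant against wild type cushion 0 passed, and 2 had a higher and 9 a lower mean, with a median log2 fold change of -0.12 against -0.01 over all genes tested. Msx1, a homeobox gene of crest and cushion mesenchyme, had the smallest p of them and a log2 fold change of -0.79 ± 0.27 (SE, adjusted p = 0.435). In the wild type tissues 6 were higher in cushion (8 with the block) and 1, Mycn, was higher in ventricle, with a median log2 difference of 2.11 against 0.01 over all genes. The 6 were Sox10, Sox8, Snai1, Snai2, Twist1 and Msx1, of which all but Sox10 and Sox8 are also known from cushion mesenchyme.

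Among 17 listed genes of Schwann cell precursors and glia, 12 were tested, 0 passed between genotypes in cushion, and the median was -0.25, with 3 higher and 9 lower. Tested between wild type tissues, 8 passed, 7 of them higher in cushion (9 with the block), where 1861 of 14940 genes were (3171 with the block). Of the 7, Sox10, S100b and Egr2 passed the filter only through cushion, so their calls give no support of their own. Dhh, which encodes a hedgehog ligand of Schwann cells and also of endothelium, was at 10.8 and 9.66 CPM in wild type cushions and at 1.98 and 2.06 CPM in wild type ventricles. Erbb3, the neuregulin receptor gene of crest glia, was at 70.9 and 46.6 CPM against 18.1 and 12.04 CPM, and cushion mesenchyme is known to express it too. Cdh19, a cadherin gene of Schwann cell precursors, was at 7.89 and 5.94 CPM against 1.18 and 0.581 CPM. Each of the 3 was higher in cushion, with adjusted p = 0.00157, 0.00725 and 0.00530.

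Ret was low in every library and highest in cushions. Its CPM values were 0.704 and 0.514 in wild type cushions, 0.491 and 0.217 in mutant cushions, 0.160 and 0.106 in wild type ventricles, and 0.123 and 0.0447 in mutant ventricles. The counts behind them were 15 and 13, 10 and 5, 3 and 2, and 3 and 1. Both mutant cushion libraries were below both wild type ones, with mutant replicate 1 close to the lower wild type library. The log2 fold change in cushion was -0.79 ± 0.57 (SE, adjusted p = 0.563), and -0.30 without mutant cushion replicate 2 (adjusted p = 0.962). In ventricle it was -0.61 ± 0.94 (SE, adjusted p = 0.998). Between wild type tissues the log2 difference of 2.14 ± 0.69 (SE) missed the threshold (adjusted p = 0.0544) and passed with the block (0.0192). Leaving out 1 library could end that call with the block. Between mutant tissues it was 1.96 ± 0.77 (SE) and did not pass in either fit (adjusted p = 0.155, or 0.0780 with the block).

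RET binds its ligands together with a co-receptor of the GFRA family, and the co-receptor gene Gfra1 was far more abundant than Ret. Gfra1 was at 31.8 and 31.4 CPM in wild type cushions, 19.5 and 18.2 CPM in mutant cushions, 4.86 and 4.54 CPM in wild type ventricles, and 4.004 and 4.38 CPM in mutant ventricles. The mutant cushions were below the wild type cushions by far more than the replicates differed, and the ventricle log2 fold change was -0.17 ± 0.16 (SE, adjusted p = 0.998). The cushion log2 fold change of -0.75 ± 0.14 (SE) did not pass without the block (adjusted p = 0.435) and fell with it (0.0263), also once GC content and length were corrected for (-0.71, adjusted p = 0.0241). The call with the block ended without wild type cushion replicate 1 (0.138) or 2 (0.3004), mutant cushion replicate 2 (0.0703) or wild type ventricle replicate 2 (0.0734). Per kilobase of transcript, Gfra1 in wild type cushion was at 6.81 CPM and Ret at 0.112 CPM.

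Gfra2, the co-receptor gene for neurturin, was at 1.88 and 1.94 CPM in wild type and at 2.16 and 1.26 CPM in mutant cushions, which overlapped, and was higher in cushion than in ventricle of wild types (log2 difference 2.97, adjusted p = 0.00409). With at most 8 counts in a ventricle library, Gfra2 passed the filter only through cushion, so this p gives no support of its own. Gdnf, a ligand gene of the receptor, was at 0.704 and 0.712 CPM in wild type and at 0.736 and 0.738 CPM in mutant cushions, with 0.909 and 1.16 CPM in wild type ventricles and 1.14 and 1.65 CPM in mutant ventricles. No difference of Gdnf by genotype or between wild type tissues passed (adjusted p = 0.963 in cushion, 0.998 in ventricle and 0.332 between tissues). The remaining members of the RET list, Gfra3, Gfra4, Nrtn, Artn and Pspn, had at most 11 counts in a library and were not tested. Of 4 tested genes of the list, 1 was higher and 3 were lower in mutant cushion, with a median of -0.46.

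**Figure D3:**
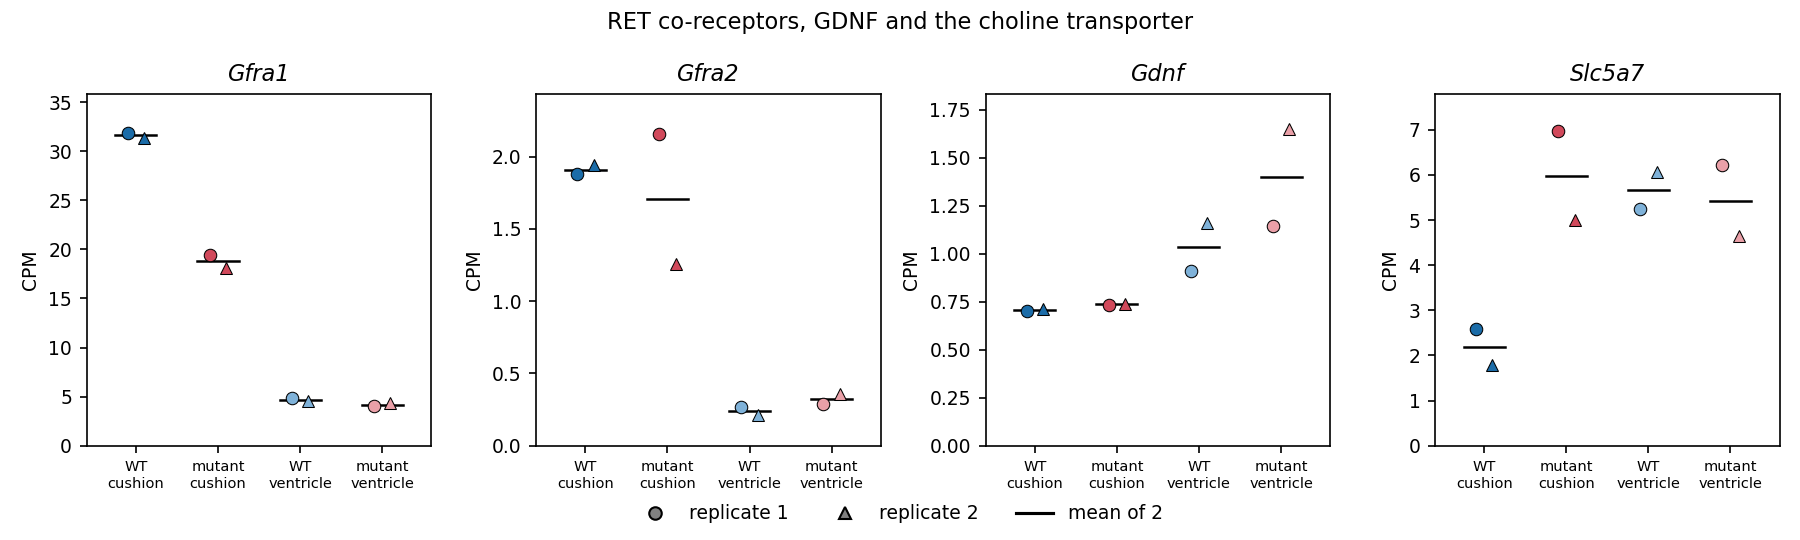
Level of Gfra1, Gfra2, Gdnf and Slc5a7 in CPM (linear axis from 0) in each library, with circles for replicate 1, triangles for replicate 2 and a line at the mean of the 2. Gfra1 lies at 31.8 and 31.4 CPM in wild type and at 19.5 and 18.2 CPM in mutant cushions, and Slc5a7 in mutant cushions lies near its level in ventricles.

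Th, at a few counts per library, was highest in wild type cushions, then in mutant cushions, and lowest in ventricles. The CPM values were 0.704 and 0.673 in wild type cushions, 0.392 and 0.478 in mutant cushions, 0.107 and 0.158 in wild type ventricles, and 0.0817 and 0.0893 in mutant ventricles. They rest on 15 and 17, 8 and 11, 2 and 3, and 2 and 2 counts. Both wild type cushion libraries lay above both mutant ones, as for 23.9% of all genes, and every cushion library lay above every ventricle library. With 2 or 3 counts per library, the order of the ventricle groups cannot be told. Wild type cushions averaged 0.689 ± 0.0223 CPM (SD, n = 2), against 0.435 ± 0.0603 CPM (SD, n = 2) for mutant cushions. The log2 fold change in cushion was -0.65 ± 0.44 (SE, adjusted p = 0.545), and the counting interval of the ratio, 0.341 to 1.16, holds 1. In ventricle the log2 fold change was -0.60 ± 0.76 (SE, adjusted p = 0.998). Th was higher in wild type cushion than ventricle, with a log2 difference of 2.32 ± 0.55 (SE, adjusted p = 0.0199). Th passed the filter only through cushion, so this p gives no support of its own. The call ended without any one of the 4 wild type libraries, and with the block leaving out 1 library could end it too. Between mutant tissues 2.28 ± 0.61 (SE) narrowly missed (adjusted p = 0.0505) and passed with the block (0.0330), but not with the block without mutant cushion replicate 2 (0.144).

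Of 15 listed genes of autonomic specification and catecholamine synthesis, 11 were tested, and 0 passed between genotypes in cushion, with 6 higher, 5 lower and a median of 0.01. In wild types 3 were higher in cushion, namely Th, Gata3 and Pnmt, and 2 were higher in ventricle, Ddc and Slc18a2. Ddc, the decarboxylase that acts after Th, was at 43.9 and 42.4 CPM in wild type cushions and at 111 and 151 CPM in wild type ventricles (log2 difference -1.61 ± 0.18, adjusted p = 0.00114). Pnmt, which turns noradrenaline into adrenaline, was at 2.21 and 1.98 CPM in cushion against 0.535 and 0.422 CPM in ventricle (adjusted p = 0.00825). The enzymes of this pathway therefore did not share 1 direction between tissues.

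Slc5a7, the choline transporter gene of cholinergic neurons, rose in mutant cushions in the fit with the block. It was at 2.58 and 1.78 CPM in wild type cushions, 6.97 and 4.99 CPM in mutant cushions, 5.24 and 6.07 CPM in wild type ventricles, and 6.21 and 4.64 CPM in mutant ventricles. The mutant cushions thus lay within or just above the range of the ventricles, and the wild type cushions lay below every other library. The log2 fold change of 1.46 ± 0.30 (SE) did not pass without the block (adjusted p = 0.435) and passed with it (0.0177), and that call ended without wild type cushion replicate 1 (0.0739) or 2 (0.220). Ache, the acetylcholinesterase gene, had a cushion log2 fold change of -0.04 ± 0.25 (SE, adjusted p = 0.959). The other 4 listed cholinergic genes, Chat and Slc18a3 at 0 and the receptor subunit genes Chrna3 and Chrnb4 at up to 6 counts, were not tested.

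Tubb3 was the most abundant member and the 1 member that fell in mutant cushions, in the fit with the block. The CPM values were 31.4 and 28.8 in wild type cushions, 16.2 and 11.9 in mutant cushions, 1.497 and 0.634 in wild type ventricles, and 1.59 and 0.759 in mutant ventricles. The cushion values rest on 668 and 727 counts in wild type and on 330 and 274 in mutants. The 2 genotypes did not overlap in cushion and did in ventricle. The means were 30.1 ± 1.83 CPM (SD, n = 2) and 14.0 ± 3.03 CPM (SD, n = 2) in the 2 cushion groups. The log2 fold change of -1.10 ± 0.32 (SE) did not pass without the block (adjusted p = 0.435), and that of -1.12 ± 0.19 (SE) passed with it (adjusted p = 0.0149).

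The call for Tubb3 with the block ended without wild type cushion replicate 2 (log2 fold change -0.81, adjusted p = 0.402) or wild type ventricle replicate 2 (0.0579). It also ended once GC content and length were corrected for (-0.84, adjusted p = 0.0641), and held without mutant cushion replicate 2 (0.0184). Fold changes in cushion ran with GC content of the transcript over 14748 genes, which are not independent replicates, at a Spearman rho of -0.607. In ventricle the trend ran the other way, with a rho of 0.458. In cushion, genes within 2 percentage points of the GC content of Tubb3 (57.9%) had a median log2 fold change of -0.31, and for Sox10 (61.8%) that median was -0.43, for Th (54.1%) -0.16, for Ret (51.4%) -0.07 and for Stmn2 (41.3%) 0.25. The medians in ventricle were 0.14 for Tubb3, 0.16 for Sox10, 0.09 for Th, 0.05 for Ret and -0.15 for Stmn2. In ventricle Tubb3 had a log2 fold change of 0.16 ± 0.47 (SE, adjusted p = 0.998). The difference between the tissues in this effect, -1.26 ± 0.57 (SE), did not pass (adjusted p = 0.419, or 0.0959 with the block), so the effect of genotype on Tubb3 is not shown to differ between them.

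Tubb3 was higher in cushion in both genotypes. Summed counts of 1395 in wild type cushion against 40 in ventricle gave a ratio of 28.2 (counting interval 20.6 to 39.6), and those of 604 against 56 in mutants gave 11.6 (8.85 to 15.6). The log2 differences of 4.81 ± 0.41 (SE) and 3.56 ± 0.39 (SE) passed with adjusted p = 5.36e-04 and 0.00240. Per kilobase of transcript, Tubb3 in wild type cushion was at 16.1 CPM, against 1.44 for Stmn2, 0.502 for Sox10, 0.353 for Th and 0.112 for Ret.

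Most other beta tubulin genes are expressed outside neurons too, and none of them passed between genotypes. Tubb5, the most abundant, was at 1931 and 2033 CPM in wild type cushions, 1757 and 1690 CPM in mutant cushions, 1496 and 1605 CPM in wild type ventricles, and 1588 and 1953 CPM in mutant ventricles. Its cushion log2 fold change was -0.20 ± 0.16 (SE, adjusted p = 0.600). Tubb4a, a neuronal form, was at 2.86 and 1.07 CPM in wild type and 1.77 and 0.347 CPM in mutant cushions, with a log2 fold change of -0.90 ± 0.76 (SE, adjusted p = 0.620). Of 8 tested members of the family, 6 had a value below and 2 above 0 in cushion, with a median of -0.17, and Tubb3 alone passed with the block. In wild types Tubb3 and Tubb4a were higher in cushion and the other 6 did not pass (log2 difference of Tubb4a 3.16 ± 0.96, adjusted p = 0.0484).

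**Figure D4:**
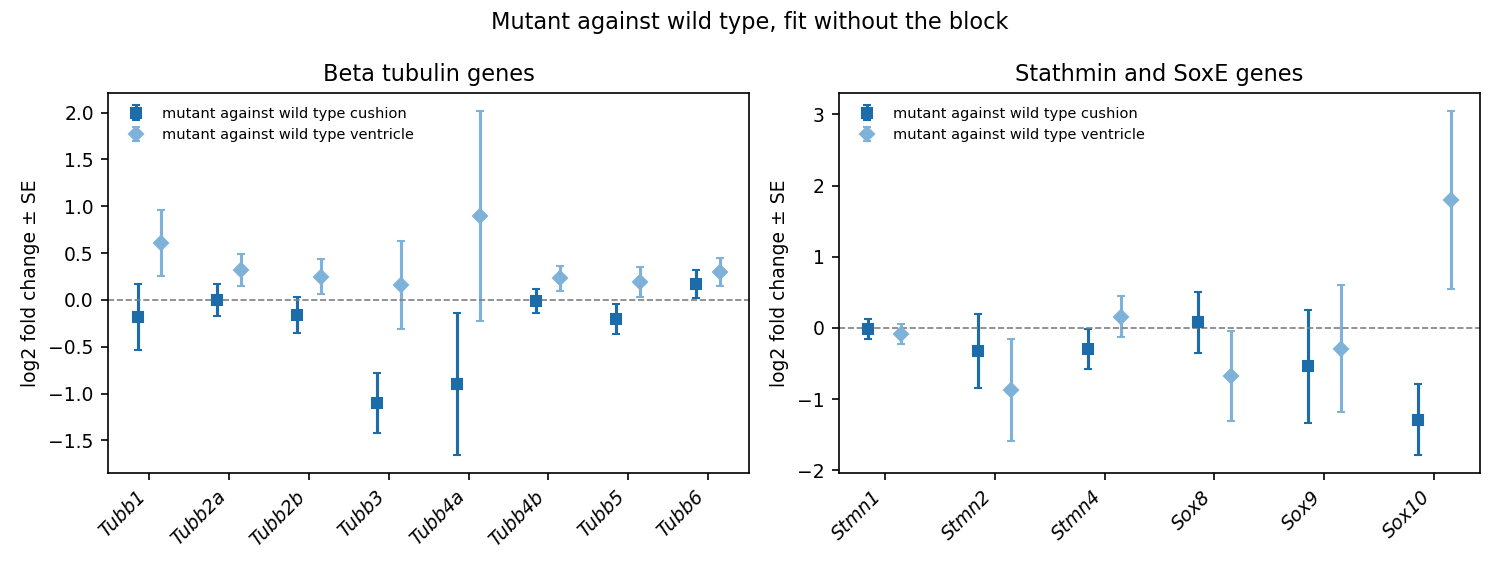
Log2 fold change of mutant against wild type with its SE (vertical axis) for 8 beta tubulin genes (left) and for stathmin and SoxE genes (right), squares for cushion and diamonds for ventricle, from edgeR without the block. Tubb3 lies at -1.10 in cushion and 0.16 in ventricle, and the long bar of Sox10 in ventricle comes from 5 against 1 counts.

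Stmn2 was higher in cushion than in ventricle and did not pass between genotypes. Its CPM values were 5.73 and 4.12 in wild type cushions, 5.44 and 2.48 in mutant cushions, 1.18 and 0.686 in wild type ventricles, and 0.817 and 0.179 in mutant ventricles. The genotypes overlapped in both tissues, and replicate 1 was above replicate 2 in all 4 groups. The cushion log2 fold change was -0.32 ± 0.52 (SE, adjusted p = 0.821) and turned to 0.15 without mutant cushion replicate 2. In ventricle it was -0.87 ± 0.71 (SE, adjusted p = 0.998). Stmn2 was higher in cushion in wild types (log2 difference 2.39 ± 0.60, adjusted p = 0.0257) and in mutants (2.95 ± 0.63, adjusted p = 0.0269). The first call ended without any one of the 4 wild type libraries (adjusted p from 0.0670 to 0.168) and the second without mutant cushion replicate 1 (0.159), mutant ventricle replicate 2 (0.0974) or wild type ventricle replicate 2 (0.0506), and with the block neither was lost.

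Stmn1, the broadly expressed stathmin of dividing cells, was at 93.9 and 99.1 CPM in wild type and 88.4 and 102.8 CPM in mutant cushions, near the 91.9 and 106.0 CPM of wild type ventricles. Its differences by genotype and tissue did not pass (adjusted p = 0.976 in cushion and 0.869 between wild type tissues). Stmn4, a neural stathmin, was higher in wild type cushion, at 24.6 and 19.1 CPM, than in ventricle, at 11.6 and 8.92 CPM (adjusted p = 0.0291). Stmn3 had at most 6 counts in a library.

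Of 22 listed genes of the neuronal cytoskeleton and axon, 21 were in the table and 17 were tested. Between genotypes in cushion 0 passed without the block and Tubb3 alone with it. The values of 5 genes lay above and of 12 below 0, with a median of -0.19. Gap43, a growth cone gene, had a value in the other direction from Tubb3, with 15.4 and 16.3 CPM in wild type against 23.6 and 23.0 CPM in mutant cushions (log2 fold change 0.55 ± 0.20, adjusted p = 0.435, or 0.0819 with the block). In wild types 5 were higher in cushion (8 with the block) and 0 in ventricle. The 5 were Tubb3, Stmn2, Stmn4, Prph, the gene of an intermediate filament of peripheral neurons, and L1cam, the gene of an axonal adhesion molecule. Prph had under 10 counts in every ventricle library and passed the filter only through cushion. L1cam was at 4.41 and 2.57 CPM in cushion and at 0.695 and 0.264 CPM in ventricle (adjusted p = 0.0177).

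Receptors and ligands of the neurotrophins, which support crest-derived neurons, gave the same contrast between tissues. Of 8 listed genes 6 were tested, 4 were higher in wild type cushion, namely Ntf3, Ntrk2, Ntrk3 and Ngfr, and 0 passed between genotypes in cushion. Ngfr, the low-affinity receptor gene, was at 7.28 and 8.71 CPM in cushion against 1.28 and 1.16 CPM in ventricle (adjusted p = 0.00281). Of 8 listed melanocyte genes, which mark another crest derivative, 6 were tested, 2 (Dct and Pmel) were higher in wild type cushion and 2 (Mitf and Ednrb) in wild type ventricle, with a median log2 difference of -0.84, and Tyrp1 was at 0 in all libraries. Dct was at 3.24 and 5.42 CPM in wild type cushions against 0.267 and 0.264 CPM in ventricles (adjusted p = 8.25e-04), while Ednrb, an endothelin receptor gene that is also expressed in endothelium, was higher in ventricle, at 479 and 531 CPM against 91.9 and 115 CPM in cushion (adjusted p = 0.00424). Dct and Ntrk3 had under 10 counts in every ventricle library and passed the filter only through cushion.

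The members varied together over the 8 libraries, with Pearson r of log2 CPM between 0.73 (Sox10 and Stmn2) and 0.97 (Ret and Stmn2) in 10 pairs. These values share the difference between tissues and the same libraries, and are a description. Among other genes with a mean of at least 1 CPM, the pattern nearest to Tubb3 was that of Tmem119, Gas7 and Rarg (r = 0.997 each over 8 libraries). Car12, E130203B14Rik and Scpep1 were nearest to Sox10 (r = 0.988, 0.988 and 0.983), and Cyp26b1, Slc4a8 and Kalrn to Ret (r = 0.993, 0.989 and 0.988). For Th the nearest were Edaradd, Dpt and 5930412G12Rik (r = 0.998, 0.992 and 0.992), and for Stmn2 Zfp503, Col9a1 and Jam2 (r = 0.995, 0.99 and 0.989).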

How the data were processed

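RNA was measured in 8 libraries, 2 in each of 4 groups assigned from the sample titles. The authors deposited raw counts per gene, with Bowtie 0.12.7 and genome build mm9 named in the submitters' processing notes. The kit was stranded, per the labels' protocols, while for the counting program, its annotation and its use of strand the answer is not given in the sources used here. All 8 deposited tables have the same content, with 28644 rows, and 3705 symbols stand on more than 1 row, and for these the largest row by total was used. Replicates differed by more than sampling noise (chi-square per degree of freedom from 44.3 to 114.9).

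Tests used edgeR 4.0.16 on R 4.3.3 (TMM scaling, filterByExpr with a minimum count of 10, robust quasi-likelihood fit over all 8 libraries in 4 groups, two-sided, threshold 0.05). The filter kept 14940 symbols with 99.97% of the counts. CPM are counts over the TMM-scaled library total. Per-kilobase levels and GC content use the longest transcript in GENCODE vM21, a build other than that of the counts, to which 98.2% of symbols were matched. Intervals are exact at 95% confidence.

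The replicate numbers carry no stated meaning. Deviations of same-numbered libraries from their group means correlated across genes in all 6 pairs of groups (Pearson r from 0.341 to 0.522). Principal component 2 (14.1% of variance) divided the 2 numbers, so they were taken as a pairing seen in the data. Alternatives were DESeq2 1.42.0, limma-voom (limma 3.58.1), upper-quartile scaling, no filter, the row with the smallest total, the block, the block with a spline correction for GC content and length, and each library left out.

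Members and 18 gene lists (175 entries, 171 found) were chosen with earlier results of these data known. Genes were named by rule: all members, all genes of the RET, stathmin, beta tubulin, SoxE and cholinergic lists, up to 4 genes with the smallest p of every other list, the 3 genes with the most similar pattern per member, and Klf2. Genes given for how scarce or abundant they were (Tfap2a, Rbfox3, Elavl4, Ttn, Nppa and the like) and the genes of a count of called list members were named after their values were seen. Some listed genes are not reported here.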

Additional observations from a re-analysis of the deposited data

How the results depend on the processing

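Without the replicate block, no setting tried called a member between genotypes in cushion or ventricle or for the difference of the 2. In cushion 1 member, Tubb3, was called with the replicate block, with limma-voom with the block and with the block and the row with the smallest total, and from 0 to 1 when 1 library was left out. The last 2 settings that use the block were chosen after seeing the data. With the block and the correction for GC content and length, 0 were called there. Between wild type tissues leaving out 1 library gave 2 to 4 members without the block and 3 to 5 with it. Between mutant tissues 4 members were called with the replicate block, 4 with the block and GC correction, 5 with limma-voom and the block and 4 with the block and the row with the smallest total, and 1 to 2 (2 to 4 with the block) when 1 library was left out. DESeq2 gave no adjusted p for Ret and Th between wild type tissues, where it called the other 3. Values near 0 changed sign on leaving out 1 library: the log2 fold change of Stmn2 in cushion ran from -0.99 to 0.15, and that of Tubb3 in ventricle from -0.48 to 0.93 (-0.27 to 0.72 with the replicate block, with -0.17 without wild type ventricle replicate 2). For the difference of genotype effects, Ret ran from -0.85 to 0.66 (-0.54 to 0.25 with the block, where 0.08 and 0.04 also lay above 0), Th from -0.34 to 0.18 (-0.30 to 0.13 with the block, where 0.09 and 0.05 also lay above 0) and Stmn2 from -0.13 to 2.02. Th was also at 0.20 there with the block and GC correction. The cause was not tested. The block changed no call of a member beyond those given beside the results. Over all genes, the replicate block moved the calls from 0 to 129 in cushion (74 with GC correction), from 3452 to 6180 between wild type tissues and from 1407 to 3572 between mutant tissues. With TMM scaling 1861 of the wild type calls were higher and 1591 lower in cushion, and with upper-quartile scaling 2046 and 1356. Without mutant cushion replicate 2, chosen after seeing the data, 0 genes of the lists passed between genotypes in cushion without the block. With it, some listed genes rose and others fell, as did genes outside the lists, so these calls are not particular to the lists. Without the block, 6 crest, 8 glial, 3 autonomic, 2 RET and 7 pan-neuronal genes were higher in wild type cushion than ventricle (6, 7, 3, 2 and 5 with all libraries). No member changed its direction of tissue difference under any setting. Sox10, Ret and Th, with under 40 counts in each library, are limited by depth.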

Other observations

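Isl1, which encodes a factor of second heart field and autonomic neurons, was at 12.3 CPM in mutant cushion replicate 1 and at 0.0447 to 1.497 CPM in the other 7 libraries. In the same library Eln, the elastin gene of smooth muscle and outflow tissue, was at 278 CPM, against 2.95 to 74.6 CPM in the others. Tubb3 was at 16.2 CPM in this library and at 11.9 CPM in mutant cushion replicate 2, against 31.4 and 28.8 CPM in wild type cushions. Any link between the Isl1 and Eln values and those of Tubb3 was not tested. Slc6a2, the noradrenaline transporter gene, had 18 counts in wild type cushion replicate 2 and at most 3 in each other library, and Tfap2b had 7 counts in mutant cushion replicate 2 and at most 1 elsewhere. These genes were chosen after their values were seen.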
